A study of Mus musculus with 6 samples.

Results

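Genes of excision repair, mismatch repair, end joining, translesion synthesis and direct reversal were compared between senescent and proliferating mouse hepatic stellate cells. The set was a list of 38 genes chosen by pathway, with earlier results of these data known. Of these, 37 had at least 1 probe set that the platform annotation gives to that gene alone, out of 18194 genes read on the array, and for each the probe set of highest mean level across the 6 arrays was used. The remaining gene, Tdg, a thymine DNA glycosylase, shares all its probe sets with pseudogenes and was not analysed here.

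Hepatic stellate cells are the vitamin A storing pericytes of the liver, which become matrix-producing myofibroblasts after injury. All 6 samples were C57Bl/6 cells that carried CMV-rtTA;TRE-GFP-shRNA.p53.1224, in which a tetracycline-controlled activator driven by a cytomegalovirus promoter switches on a green fluorescent marker and a hairpin RNA against p53 when doxycycline is present. In the 3 proliferating samples doxycycline (1 ug/ml) was given and p53 is described as knocked down. The 3 senescent samples had a control treatment and express p53 according to their labels. Doxycycline, p53 state and growth state therefore differ together and cannot be told apart. The transcript that the hairpin targets was not analysed here. The labels name no animal, culture, clone or pool behind an array. The p-values therefore cover no more than the scatter of these 6 samples, which could be technical.

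Cells keep several repair systems because DNA lesions differ in shape. Nucleotide excision repair cuts out a stretch of strand around bulky lesions such as ultraviolet photoproducts. Base excision repair removes single damaged bases through glycosylases, and mismatch repair corrects replication errors. End joining reseals broken chromosomes, translesion polymerases copy past lesions that block the replicative enzymes, and direct reversal repairs a base without cutting the strand. Several of these genes are known p53 targets in human cells, among them DDB2, XPC and POLH, whereas mouse Ddb2 has been described as not induced by p53.

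Values were log2 RMA values (robust multi-array average, the authors' background-corrected and quantile-normalised summary per probe set). Array medians lay between 6.15 and 6.19. Background was set at 5.57, below which lay 95% of the mean levels of 44 probe sets for olfactory receptors. All 37 genes had a mean above it, and 36 were above it on every array. The exception was Ercc6 on proliferating replicate 2. Of 9 measured cell division genes 8 fell, with the largest fall in Ccnb2, a mitotic cyclin, by 1.10 (log2). The median change of the 9 was -0.67. All 9 stayed above background on every array. Cdk1, Top2a and Mki67 still had means of 12.07, 11.81 and 11.66 on the senescent arrays, after falls of 0.44, 0.67 and 0.64. Of 8 measured p53 target genes 7 rose, including Cdkn1a, the gene of the kinase inhibitor p21, by 1.74 and Mdm2, the ubiquitin ligase of p53, by 1.21. Of 10 stellate cell or myofibroblast markers, 8 were above background on all arrays, while Lrat and Reln, markers of quiescent stellate cells, were below it on all. Of these 10 markers 4 were called lower and 0 higher. The 4 were the receptor gene Pdgfrb (by 1.30), the collagen genes Col3a1 and Col1a1 (0.93 and 0.56) and the transcription factor gene Hand2 (0.85). Des, Acta2, Vim and Tagln went the other way, by 0.14, 0.12, 0.10 and 0.32. Their senescent arrays were all above the proliferating ones, but they were not called. All 4 mesothelial markers were above background on every array, with a mean log2 level of 11.1 to 11.4 on proliferating and of 11.2 on senescent arrays. The 10 stellate cell or myofibroblast markers had a mean of 10.6 on proliferating and of 10.3 on senescent arrays. Lrat and Reln, with means of 3.55 and 4.25 on proliferating and 3.57 and 4.21 on senescent arrays, pull this mean down. Mean levels of different probe sets do not rank cell types. Among the 4 mesothelial markers, Msln and Upk1b rose by 0.79 and 0.43 and Wt1 fell by 1.11. Of 5 biliary markers 4 were above background on all arrays, and of them Krt19 rose by 0.58 and Krt7 fell by 0.69. Of 7 hepatocyte markers 3 (Apoa1, Ttr and Hnf4a) were above background on all arrays and 4, Alb among them, below it on all, and none was called. Of 7 macrophage markers 3 (Clec4f, Csf1r and Lyz2) were above it on all arrays and 3 (Adgre1, Marco and Timd4) below it on all, and Csf1r rose by 0.35. Of 6 endothelial markers 5 were below background on all arrays. The sixth, Cdh5, rose by 0.72, from a mean of 5.02, below background, to one of 5.74, close above it. Of 4 lymphocyte markers 3 were below it on all, and none was called. In bulk RNA, fewer cells of a type and less RNA per cell cannot be told apart. The part of growth state, of the fall of 4 stellate cell markers and of other cell types in the results below was not tested.

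The senescent cells had more RNA for the 3 nucleases that make the cuts of nucleotide excision repair, for the translesion polymerase gene Polk and for the alkyl transferase gene Mgmt. They had less RNA for 6 genes of base excision and single-strand break repair, for the mismatch sensor gene Msh3, for the lesion sensor gene Ddb2 and for the catalytic subunit of polymerase zeta, Rev3l. The 2 subunits of the end-joining protein Ku were called in opposite directions. In all, 6 of the 37 genes rose and 10 fell (limma with Benjamini-Hochberg adjustment over all 18194 genes, adjusted p under 0.05), which is 43.2% of them. Among all genes 20.0% passed, 9.49% higher and 10.5% lower, and among the genes with a mean above background 27.4% passed. The list was chosen with earlier results of these data known, so these shares describe it and do not test it. On 21 of the 37 the arrays of the groups did not overlap, 8 with the senescent arrays above and 13 with them below. Over all genes this share was 37.0%, with 17.4% above and 19.6% below, and among genes above background it was 47.7%. All 16 called genes were among the 21. The median log2 change of the 37 was -0.05, against -0.002 over all genes. Most changes were small. Of the 16, 10 were under 1.5-fold, and Ercc1 alone was at least 2-fold, which it was not with its 4 probe sets averaged (log2 change 0.50).

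These directions hold relative to most other genes measured. Probe sets for the poly-A spike-ins, bacterial RNAs added before labelling, read 0.60 ± 0.17 (log2, SE, n = 3 per group) higher on the senescent arrays, with an exact two-sided permutation p of 0.1, the smallest that 3 arrays against 3 can give. Scaling each array to them moved the median of all genes to -0.60. In that scaling 31 of the 37 genes were called lower and only Ercc1 higher. Ercc4 and Xrcc5 turned below 0, and Ercc5, Mgmt and Polk were not called. This scaling puts the same spike-in offset of an array on every gene. Ddb1, Ercc6 and Ercc5, with SEs of 0.07, 0.24 and 0.07 before it, all had an SE of 0.20 after it. The calls made in it therefore repeat 1 uncertain shift and are not separate results for each gene. Centring on genes of middle level turned the split over all genes from 1726 higher and 1919 lower to 2298 and 1338, and gave 6 repair genes called higher and 10 called lower.

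**Figure D1:**
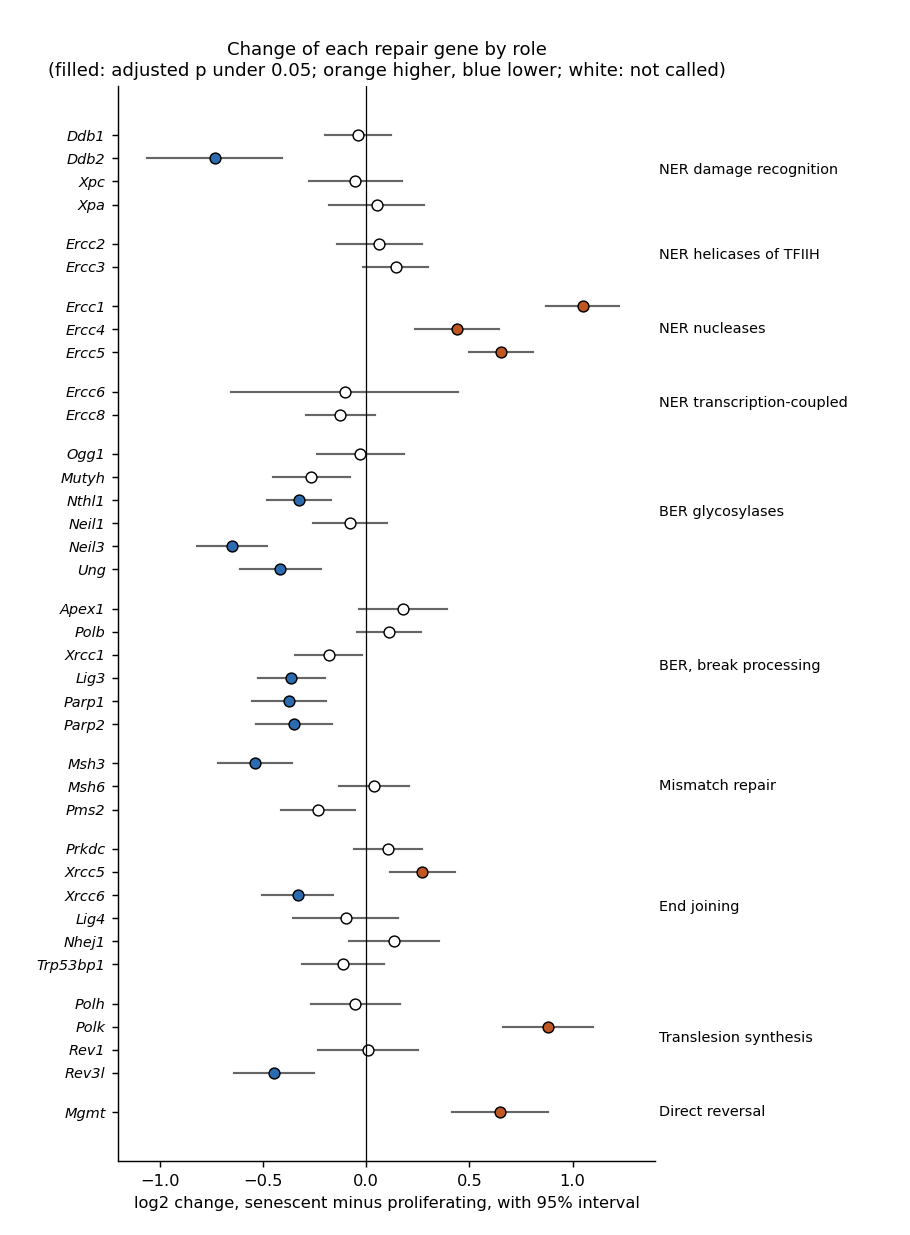
Log2 change (senescent minus proliferating) of the 37 measured repair genes with its 95% interval, grouped by role (NER, nucleotide excision repair; BER, base excision repair). Filled points passed an adjusted p of 0.05 (orange higher, blue lower), and the 3 excision nucleases Ercc1, Ercc4 and Ercc5 lie on the right while the called glycosylases lie on the left. With arrays scaled to the poly-A spike-ins, Ercc4 and Xrcc5 turned below 0.

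The promoter windows of 32 of the listed genes were matched by symbol in RefSeq (GRCm38.p6), each running from 250 bases before a transcription start to 50 after it. They were searched on both strands for the E2F motif, bound by factors that drive replication genes (TTTCCCGC, TTTGGCGC, TTTCGCGC or TTTGCCGC), and for TTTGAA, the cell cycle homology region. The third search was for the p53 decamer RRRCWWGYYY (R is A or G, W is A or T, Y is C or T). This decamer is a half-site and not a full p53 response element. Matches may overlap. The E2F motif was in the windows of Msh3, Nthl1 and Xrcc6, which are 3 of the 8 called-lower genes with an entry, in 0 of the 6 called-higher genes, and in Msh6, which was not called. It was in 2.26% of all 32851 windows. The p53 decamer was in windows of Polk, Neil3 and Neil1 and in 8.36% of all windows. TTTGAA was in Ercc5 alone and in 17.9% of all windows. The windows printed are those of the largest rise and of the largest fall with an entry, Ercc1 and Neil3, and of the 3 genes that were lower and hold the E2F motif, which were chosen after their values were seen. Capitals mark the p53 decamer in Neil3 and the E2F motif in the others, and the window of Ercc1 holds none of the searched letters.
Ercc1, chr7:19344821-19345120, plus strand: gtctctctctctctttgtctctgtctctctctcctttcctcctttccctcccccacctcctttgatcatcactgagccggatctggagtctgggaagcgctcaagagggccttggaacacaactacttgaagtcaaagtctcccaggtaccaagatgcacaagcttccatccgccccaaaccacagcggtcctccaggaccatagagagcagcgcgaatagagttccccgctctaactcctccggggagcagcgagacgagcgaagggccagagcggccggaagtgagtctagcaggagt
Neil3, chr8:53639016-53639315, minus strand: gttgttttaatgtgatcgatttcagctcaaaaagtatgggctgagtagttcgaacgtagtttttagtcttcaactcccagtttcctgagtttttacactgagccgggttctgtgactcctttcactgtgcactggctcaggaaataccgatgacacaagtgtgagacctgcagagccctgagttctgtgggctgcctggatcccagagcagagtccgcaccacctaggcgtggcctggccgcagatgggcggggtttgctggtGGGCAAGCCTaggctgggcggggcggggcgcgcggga
Msh3, chr13:92354954-92355253, minus strand: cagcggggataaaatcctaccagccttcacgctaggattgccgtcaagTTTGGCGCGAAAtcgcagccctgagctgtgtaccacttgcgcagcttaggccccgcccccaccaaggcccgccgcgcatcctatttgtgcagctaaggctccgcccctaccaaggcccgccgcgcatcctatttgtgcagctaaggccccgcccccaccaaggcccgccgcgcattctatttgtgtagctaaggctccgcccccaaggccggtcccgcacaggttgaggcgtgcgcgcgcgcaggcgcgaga
Nthl1, chr17:24632432-24632731, plus strand: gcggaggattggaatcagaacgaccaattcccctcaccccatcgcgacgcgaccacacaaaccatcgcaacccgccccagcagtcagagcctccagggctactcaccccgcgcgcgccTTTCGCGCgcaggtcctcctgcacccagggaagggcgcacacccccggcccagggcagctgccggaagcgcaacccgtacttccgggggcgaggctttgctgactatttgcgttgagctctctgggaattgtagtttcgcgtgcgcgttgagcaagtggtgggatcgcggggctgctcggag
Xrcc6, chr15:82016119-82016418, plus strand: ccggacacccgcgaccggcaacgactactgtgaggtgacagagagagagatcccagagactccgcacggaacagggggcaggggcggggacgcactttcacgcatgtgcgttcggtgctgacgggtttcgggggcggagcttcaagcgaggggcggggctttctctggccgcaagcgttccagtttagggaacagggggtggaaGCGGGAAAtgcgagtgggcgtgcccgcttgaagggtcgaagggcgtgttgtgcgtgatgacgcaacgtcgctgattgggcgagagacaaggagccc
In Msh3 the capitals join 2 overlapping matches on opposite strands, beginning 202 and 198 bases before the start. The match begins 132 bases before the start in Nthl1 and 46 in Xrcc6. A match is a string of letters and not a measured binding site.

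In nucleotide excision repair the genes that cut rose, and of the genes that find, open or verify the lesion Ddb2 fell and the others were not called. ERCC1 and ERCC4 (XPF) form the nuclease that cuts on the 5′ side of the lesion, and ERCC5 (XPG) cuts on the 3′ side. Ercc1 (Entrez gene 13870) read 10.39, 10.30 and 10.30 on the proliferating arrays and 11.37, 11.29 and 11.49 on the senescent arrays. All senescent arrays lay far above all proliferating ones, a 2.07-fold rise (log2 change 1.05 ± 0.08, SE, n = 3 per group, adjusted p = 0.000107). Its second-brightest probe set gave 0.93 (adjusted p over all probe sets below 0.05), and its dimmer ones 0.16 and -0.16. The mean of all 4 was still called, at a log2 change of 0.50 (adjusted p = 0.00147). In RefSeq the gene overlaps Cd3eap, a subunit gene of RNA polymerase I, by 518 bases, and Cd3eap rose by 0.49 ± 0.08. The part of this overlap in the values was not tested.

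Ercc5 read 9.33, 9.27 and 9.22 in proliferating and 9.96, 9.89 and 9.95 in senescent cells, with no overlap (1.57-fold, log2 change 0.65 ± 0.07, adjusted p = 0.000485). Its other probe set had a mean of 3.73, below background, and averaging both ended the call (0.26, adjusted p = 0.054). Ercc4 read 7.73, 7.99 and 7.82 against 8.32, 8.20 and 8.35. The groups did not overlap, and the rise was the smallest of the 3 nucleases (1.36-fold, 0.44 ± 0.09, adjusted p = 0.00987). The call of Ercc4 depended on the probe set. Its 3 others gave 0.32, 0.17 and -0.01, and the mean of all 4 gave 0.23 (adjusted p = 0.0726).

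Lesion recognition was measured by 4 genes. Ddb2 (Entrez gene 107986), which encodes the subunit of the UV-damaged DNA binding complex that touches the lesion, read 7.74, 7.27 and 7.20 in proliferating and 6.60, 6.81 and 6.59 in senescent cells. Proliferating replicate 1 was the highest, and all senescent arrays were below all proliferating arrays. The fall was 1.66-fold (log2 change -0.73 ± 0.14, adjusted p = 0.00831), and the gene's other probe set gave -1.0. Ddb1, its partner and the adaptor of the CUL4 ubiquitin ligase, had -0.04 ± 0.07 (95% interval -0.20 to 0.12). Xpc, the sensor of helix distortion, had -0.05 ± 0.10 (-0.28 to 0.17), with arrays between 7.57 and 7.93 in proliferating and between 7.66 and 7.77 in senescent cells. Xpa, which verifies the lesion, had 0.05 ± 0.10 (-0.18 to 0.28). For these 3 genes the groups overlapped.

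The helicase genes of the transcription factor TFIIH, which open the helix, were Ercc2 (XPD) with 0.06 ± 0.09 (95% interval -0.14 to 0.27) and Ercc3 (XPB) with 0.14 ± 0.07 (-0.01 to 0.30). The senescent arrays of Ercc3, at 10.00, 9.91 and 9.88, were all above the proliferating ones, at 9.75, 9.78 and 9.82, but the change did not pass (adjusted p = 0.201). The genes of transcription-coupled repair, which respond to stalled RNA polymerase, were Ercc8 (CSA) with -0.12 ± 0.07 and Ercc6 (CSB) with -0.10 ± 0.24. Ercc6 had the widest interval of the set (-0.65 to 0.45), with arrays between 5.52 and 6.33, near background.

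**Figure D2:**
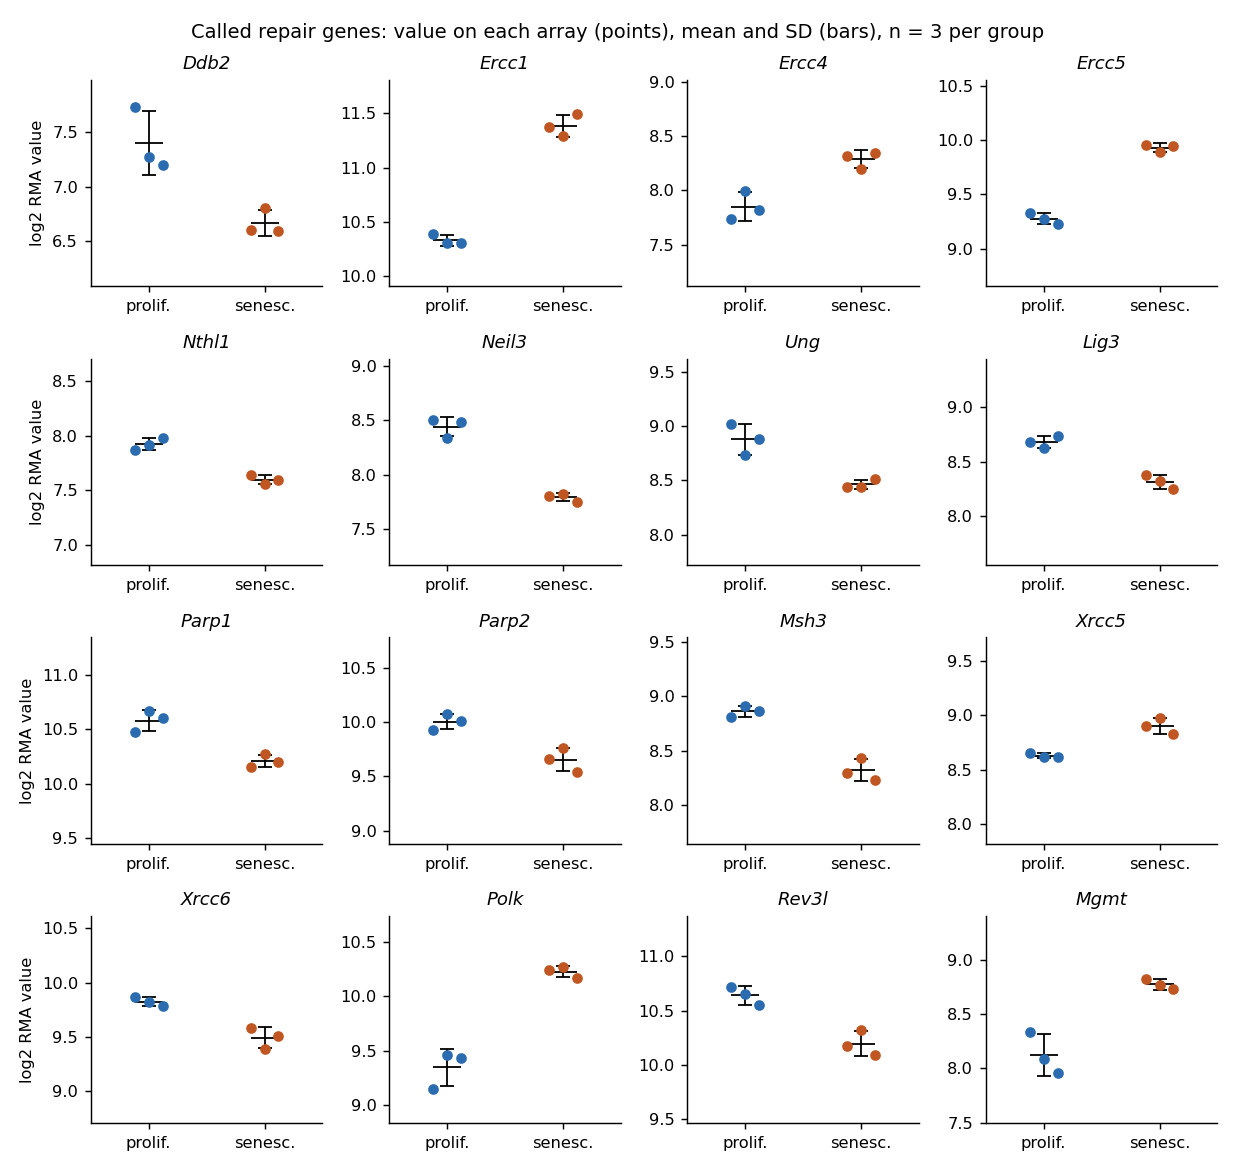
Log2 RMA value of the 16 called repair genes on each array (points) with the mean and SD of each group (bars), 3 proliferating arrays in blue and 3 senescent in orange. Each panel has its own level but the same height in log2 units, and in none of the 16 panels do the groups overlap.

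In base excision repair, genes of several steps were called lower and none was called higher. Of 12 genes measured, 6 were called lower and 0 higher, with a median of -0.30. Among all genes 10.5% were called lower and 9.49% higher. Among genes with a mean above background 27.4% were called in either direction. The difference from these shares was not tested, since the list was chosen with earlier results known. The calls of Nthl1, Parp2 and Lig3 did not hold in every alternative, as given below. Among the glycosylases, which cut the damaged base from its sugar, Neil3 (Entrez gene 234258), an enzyme of oxidised bases found mainly in dividing cells, read 8.50, 8.34 and 8.48 in proliferating and 7.80, 7.82 and 7.75 in senescent cells. The groups were far apart (1.57-fold lower, log2 change -0.65 ± 0.07, adjusted p = 0.000727), and the other probe set of Neil3 gave -0.86. Ung, which removes uracil from DNA, read 9.02, 8.73 and 8.88 against 8.44, 8.44 and 8.51, a fall of 0.42 ± 0.09 (log2, adjusted p = 0.0112). Nthl1, which removes oxidised pyrimidines, read 7.87, 7.92 and 7.98 against 7.64, 7.56 and 7.60 (-0.33 ± 0.07, adjusted p = 0.0116). Both genes were lower on every senescent array, but the call of Nthl1 ended without proliferating replicate 3 (-0.30, adjusted p = 0.055).

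The other glycosylases did not pass. Mutyh, which removes adenine paired with oxidised guanine, had -0.27 ± 0.08 with no overlap between the groups (adjusted p = 0.0533). It was called when genes below background were left out of the fit (adjusted p = 0.0322). Ogg1, which removes the oxidised guanine itself, had -0.03 ± 0.09 (95% interval -0.24 to 0.18), and Neil1, the relative of Neil3, had -0.08 ± 0.08 (-0.26 to 0.10).

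After the glycosylase, an endonuclease, a polymerase and a ligase finish the repair, and PARP enzymes mark the break. Parp1, the main break sensor, read 10.47, 10.67 and 10.60 in proliferating and 10.15, 10.27 and 10.20 in senescent cells, 1.29-fold lower (log2 change -0.37 ± 0.08, adjusted p = 0.0118). Its relative Parp2 read 9.93, 10.07 and 10.01 against 9.66, 9.76 and 9.54 (-0.35 ± 0.08, adjusted p = 0.0184). Lig3, a ligase of this pathway, read 8.68, 8.62 and 8.73 against 8.38, 8.32 and 8.25 (-0.36 ± 0.07, adjusted p = 0.00879). These 3 genes fell by nearly the same small amount, and no senescent array reached the lowest proliferating one. The call of Parp2 was the least firm of them. It ended without proliferating replicate 2 or 3 or senescent replicate 1 or 3, with log2 changes of -0.31, -0.35, -0.35 and -0.29 and adjusted p of 0.0665, 0.0604, 0.0587 and 0.0539. Averaging the 5 probe sets of Lig3 ended its call (-0.18, adjusted p = 0.0768). In RefSeq Lig3 overlaps Rffl, which rose by 0.37 ± 0.07.

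Xrcc1, the scaffold that holds LIG3, had -0.18 ± 0.07 without overlap (adjusted p = 0.114). Apex1, the endonuclease of abasic sites, had 0.18 ± 0.09 (adjusted p = 0.236), and Polb, the gap-filling polymerase, had 0.11 ± 0.07 (adjusted p = 0.313). The senescent arrays of Polb were all above the proliferating ones, while the groups of Apex1 overlapped. Of the 4 probe sets of Polb, the brightest 2 gave 0.11 and 0.10. The third, with a mean of 7.31, gave -0.20 and did not pass over all probe sets. The dimmest, with a mean of 5.68 near background, gave -0.67 and passed.

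Mismatch repair differed between its sensors. Msh3, whose protein recognises small loops, read 8.81, 8.91 and 8.86 in proliferating and 8.30, 8.44 and 8.23 in senescent cells, with a clear gap between the groups (1.45-fold lower, log2 change -0.54 ± 0.08, adjusted p = 0.00219). Msh6, which takes the same place in the complex that recognises single mismatches, read 10.68, 10.49 and 10.53 against 10.62, 10.59 and 10.60 (0.04 ± 0.07, 95% interval -0.13 to 0.21), and its groups overlapped. Pms2, the endonuclease of the pathway, had -0.23 ± 0.08 without overlap (adjusted p = 0.0722). It passed when genes below background were left out (adjusted p = 0.0431). Its other probe sets gave 0.15 and -0.12, and the mean of its 3 was -0.07 (adjusted p = 0.544). The 3 other probe sets of Msh3 were below background, and with them averaged in its call ended (-0.16, adjusted p = 0.179).

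In end joining the Ku subunits, which form a ring around a broken end, were called in opposite directions. Xrcc5 (Ku80) read 8.65, 8.62 and 8.61 in proliferating and 8.90, 8.97 and 8.83 in senescent cells (1.21-fold higher, log2 change 0.27 ± 0.07, adjusted p = 0.0263). Xrcc6 (Ku70) read 9.87, 9.83 and 9.79 against 9.58, 9.39 and 9.51 (1.26-fold lower, -0.33 ± 0.07, adjusted p = 0.0163). Neither gene's groups overlapped, yet both calls were close to the threshold. That of Xrcc5 ended without proliferating replicate 2 or 3 or senescent replicate 1 or 2, with log2 changes of 0.27, 0.27, 0.27 and 0.24 and adjusted p of 0.0837, 0.0919, 0.0787 and 0.0744. With the replicate number as a block its adjusted p was 0.0656, in a fit over all probe sets 0.0512, and with the most variable probe set of every gene 0.056. That of Xrcc6 ended without proliferating replicate 2 (-0.33, adjusted p = 0.051), and its other probe set, with a mean of 4.83 below background, gave 0.14. The mean of both probe sets of Xrcc6 was not called (-0.09, adjusted p = 0.558). Desi1, which overlaps Xrcc6 in RefSeq, rose by 0.36 ± 0.08.

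The remaining end-joining genes did not pass. Prkdc, the kinase that Ku recruits, had 0.11 ± 0.07 (95% interval -0.06 to 0.27). Lig4, the ligase, had -0.10 ± 0.11 (-0.35 to 0.16), and Nhej1 (XLF), its cofactor, had 0.14 ± 0.09 (-0.08 to 0.35). Trp53bp1, which shields ends from resection, had -0.11 ± 0.09 (-0.31 to 0.08). The 6 probe sets of Trp53bp1 differed. The second-brightest gave -0.19, dim ones with means of 5.86 and 5.70 gave -0.66 and -0.68, and the others gave 0.07 and 0.21. Only that at -0.68 passed over all probe sets.

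Translesion synthesis was also divided. Polk (Entrez gene 27015), the polymerase that copies past bulky adducts of guanine, read 9.15, 9.46 and 9.43 in proliferating and 10.24, 10.27 and 10.17 in senescent cells. The gap between the groups was wide, and the rise was 1.84-fold (log2 change 0.88 ± 0.10, adjusted p = 0.000608). Its other probe set gave 0.55. Rev3l, the catalytic subunit of polymerase zeta, read 10.72, 10.65 and 10.55 against 10.18, 10.32 and 10.09, a 1.36-fold fall (-0.45 ± 0.09, adjusted p = 0.00779). Its other probe sets gave -0.03 and -0.01, and the mean of the 3 was not called (-0.16, adjusted p = 0.156). Polh, the polymerase that copies past thymine dimers, had -0.05 ± 0.09 (95% interval -0.27 to 0.16), and Rev1, the scaffold for the other bypass polymerases, had 0.01 ± 0.11 (-0.24 to 0.25). The groups overlapped for both.

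Direct reversal was represented by Mgmt, a transferase that takes alkyl groups off guanine and is used up in doing so. It read 8.34, 8.08 and 7.96 in proliferating and 8.82, 8.77 and 8.73 in senescent cells. Every senescent array was above every proliferating one (1.57-fold higher, log2 change 0.65 ± 0.10, adjusted p = 0.00317), and the gene has a single probe set.

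**Figure D3:**
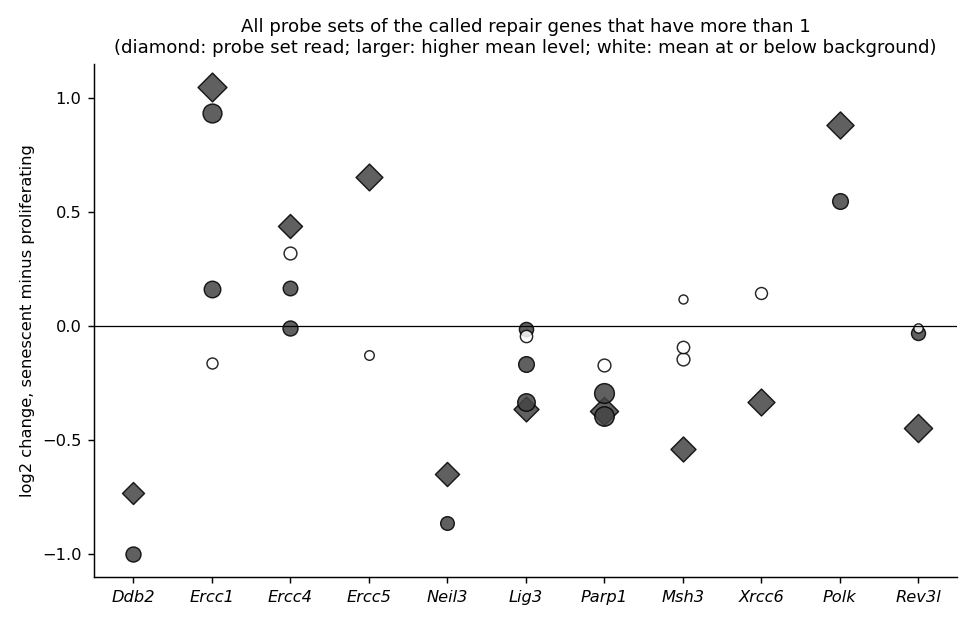
Log2 change of every probe set of the 11 called repair genes that have more than 1 (diamond, the probe set read; larger symbols, higher mean level; white, mean below background). The dark symbols of each gene lie on 1 side of 0, except those of Ercc4, which spread from 0.44 to -0.01.

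Of the 16 called genes, 11 had further probe sets, 23 in all. Of these, 18 changed in the direction of the probe set read and 5 of the 18 also passed over all probe sets. None of the 23 passed in the opposite direction. Of the 13 above background, 12 had the same direction. The exception was a probe set of Ercc4 at -0.01.

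Genes with related or partnered products were also set against each other within each array, which removes any scaling of the array. The 9 pairs were chosen after their values were seen, and with 3 arrays a group no exact two-sided permutation p can go below 0.1 (0.1125 after Benjamini-Hochberg adjustment over the 9). Polk gained 0.93 ± 0.05 (log2, SE) over Polh, from a difference of -0.26 in proliferating to 0.67 in senescent cells. Xrcc5 gained 0.60 ± 0.09 over Xrcc6, and Ercc1 gained 0.61 ± 0.10 over Ercc4. Msh3 lost 0.57 relative to Msh6 (a change of -0.57 ± 0.11), Neil3 the same amount relative to Neil1 (-0.57 ± 0.04), Ddb2 relative to Ddb1 (-0.69 ± 0.21) and Rev3l relative to Rev1 (-0.45 ± 0.09). In these 7 pairs the groups did not overlap, and each had the smallest possible p of 0.1. Lig3 against Xrcc1 changed by -0.18 ± 0.05 without overlap. Parp1 against Parp2 changed by -0.02 ± 0.05, and its groups overlapped (exact p = 0.8). With the mean of all probe sets of each gene the changes were smaller for Ercc1 against Ercc4 (0.27), Xrcc5 against Xrcc6 (0.37), Msh3 against Msh6 (-0.20), Rev3l against Rev1 (-0.17) and Lig3 against Xrcc1 (-0.0018), and that of Parp1 against Parp2 was 0.04. With the most variable probe set of each gene Xrcc5 against Xrcc6 changed by 0.13.

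**Figure D4:**
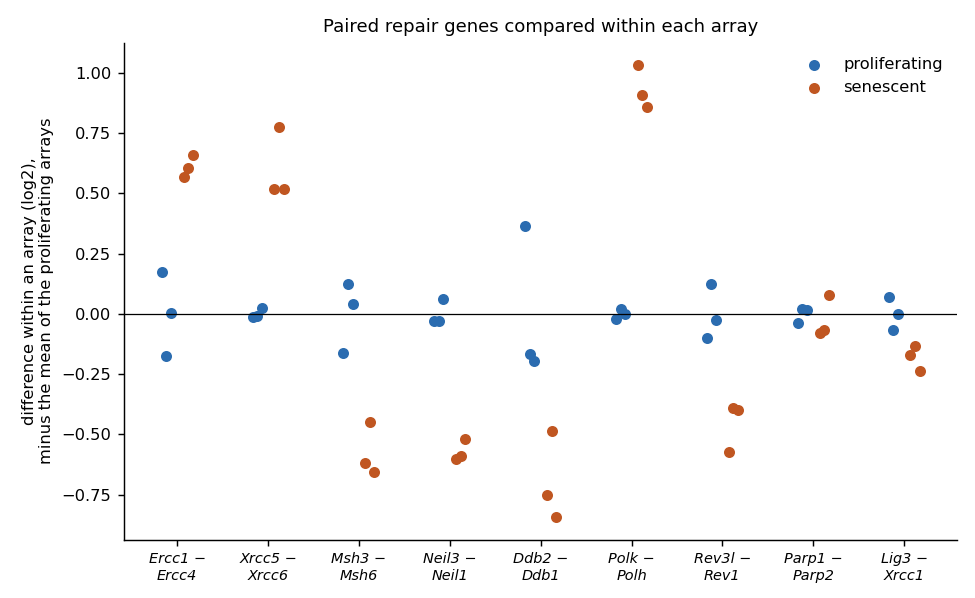
Difference between 2 repair genes within each array (log2), minus the mean of the proliferating arrays for that pair, with 3 proliferating (blue) and 3 senescent (orange) arrays. The senescent arrays of Polk minus Polh and of Xrcc5 minus Xrcc6 lie above all proliferating arrays, and those of Parp1 minus Parp2 do not separate.

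Among other genes of the same pathways, 61 companion genes were listed and 54 measured, of which 1 rose and 11 fell. This is 1.85% higher and 20.4% lower, against 9.49% and 10.5% among all genes. In both directions together it is 22.2%, against 20.0% among all genes and 27.4% among those with a mean above background, which 52 of the 54 had. The difference from the other genes, or from the 37 listed repair genes, was not tested. Their median log2 change was -0.12. In nucleotide excision repair 2 of 17 fell, Rpa3, a subunit of the single-strand binding protein RPA, by 0.65 ± 0.09 (log2, SE) and Cul4b, the ligase scaffold for the DDB complex, by 0.42 ± 0.07. The TFIIH subunit genes among them were not called. In base excision repair 4 of 11 fell, among them Lig1, the replicative ligase, by 0.53 ± 0.07, Smug1, a uracil glycosylase, by 0.45 ± 0.09, and Mbd4, a glycosylase of mismatched thymine, by 0.40 ± 0.08. In translesion synthesis 4 of 11 fell and 0 rose. Mad2l2 (REV7), the partner of Rev3l in polymerase zeta, fell by 0.60 ± 0.07. Shprh, a ubiquitin ligase of the sliding clamp, and Usp1, which removes that ubiquitin, fell by 0.54 ± 0.13 and 0.46 ± 0.11. In end joining 1 of 10 fell, Rif1, an effector of Trp53bp1, by 0.34 ± 0.10. In mismatch repair 1 of 3 rose, Mlh3, by 0.38 ± 0.07. The 2 companions of direct reversal were not called. The calls of Shprh and Usp1 ended without proliferating replicate 2 or 3 or senescent replicate 1, with adjusted p between 0.0565 and 0.072, and Rif1 kept its call in 1 of the 6 fits that left out an array. Without proliferating replicate 3, or without senescent replicate 1, 7 companions were called lower.

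**Figure D5:**
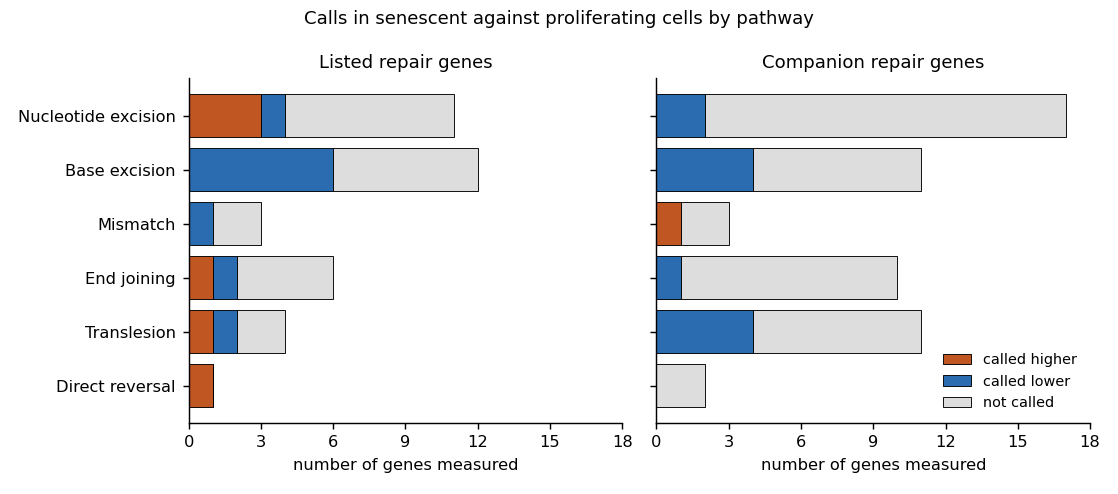
Number of measured genes called higher (orange), called lower (blue) or not called (grey) in senescent cells, for the 37 listed repair genes (left) and the 54 companion genes of the same pathways (right). Nucleotide excision repair, with 11 of the 37 genes, holds 3 of the 6 listed genes that rose. Base excision repair, with 12 of the 37, holds 6 of the 10 that fell. These directions are relative to the bulk of genes, and with arrays scaled to the poly-A spike-ins only Ercc1 of the listed genes was called higher.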

How the data were processed

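The authors deposited log2 values per probe set, made with RMA per the submitters' processing notes. No version, probe mapping, filter or batch of that step was found in the labels or notes. Ranked by value, the 6 arrays were within 0.123 of each other at every rank, so a shift shared by most genes is not visible in them. The annotation gave 34958 of 45101 probe sets to 1 gene, and 932 to several, which were not used. Group differences (senescent minus proliferating, no covariate) came from limma 3.58.1 (lmFit, eBayes) run in R 4.3.3. The Benjamini-Hochberg adjustment ran over 18194 genes. Intervals of changes are 95% intervals of this fit, and the small number of arrays limits their precision. The fit was tested on simulated data. Pairs of genes were compared with exact permutation tests, with plots by matplotlib 3.10.9 under Python 3.11.15.

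The listed genes, the companion list, the pairs and the tests were chosen with earlier results of these data known. All listed genes are named, and of the companions up to 3 called genes per pathway by size of change. Further probe sets of Polb and Trp53bp1 and the overlapping genes Cd3eap, Rffl and Desi1 were named after their values were seen. Genes on the lists that share every probe set with another gene were not analysed here. Alternatives covered the probe set per gene, the level of the fit, the variance model, filters on dim genes, scaling of the arrays, a replicate block and leaving out each array. Same-numbered arrays of the groups were not paired, since their deviations from the group means correlated at 0.09, -0.07 and -0.15.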

Additional observations from a re-analysis of the deposited data

How the results depend on the processing

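Of the 16 called repair genes, 7 (Ddb2, Ercc1, Mgmt, Neil3, Parp1, Polk and Ung) kept call and direction in every alternative that covered them, leaving aside scaling to the poly-A spike-ins, which ended the calls of Mgmt and Polk. The replicate block gave 5 repair genes higher and 10 lower (1392 and 1543 of all genes), and of the repair genes only Xrcc5 lost its call (log2 change 0.27, adjusted p = 0.0656). With an array left out, 5 to 6 repair genes were called higher and 8 to 10 lower, 1128 (without senescent replicate 1) to 1562 of all genes higher and 1305 to 1775 lower, and 7 to 13 companions lower. Scaled to the poly-A spike-ins, 175 of all genes were called higher and 15146 lower, 1 and 31 of the repair genes, and 0 and 52 of the companions. These counts repeat 1 uncertain shift of the spike-ins in every gene and are not separate results for each gene. The shift common to all genes was -0.60, and the median of the repair genes was -0.65. This turned the log2 changes of 11 genes, with Xpa -0.54, Ercc2 -0.53, Ercc3 -0.45, Ercc4 -0.16, Apex1 -0.42, Polb -0.48, Msh6 -0.56, Prkdc -0.49, Xrcc5 -0.32, Nhej1 -0.46 and Rev1 -0.59. The spike-in difference itself was 0.45 to 0.71 with an array left out. Companions called higher numbered 2 with the most variable probe set, with a robust variance trend, and among genes above background or above the median level, and 3 with median centring. Other sign changes were Ddb1 0.029, Xpc 0.017, Ogg1 0.040 and Polh 0.016 with median centring, Xpa -0.13, Ercc2 -0.020 and Polb -0.16 with all probe sets averaged, and Xpa -0.23, Ercc2 -0.10, Polb -0.67 and Xrcc6 0.14 with the most variable probe set, where the value of Polb passed and that of Xrcc6 no longer did. Dimmer probe sets enter these last 2 settings. With an array left out, uncalled genes near 0 also changed sign, with ranges of Xpc -0.15 to 0.034, Xpa -0.046 to 0.14, Ercc2 -0.0033 to 0.12, Ercc6 -0.34 to 0.067, Ogg1 -0.12 to 0.051, Msh6 -0.00080 to 0.092 and Rev1 -0.050 to 0.098. The cause of these changes was not tested.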
